A study of Saccharomyces cerevisiae with 16 samples.

Results

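The PAU, DAN and TIR genes of Saccharomyces cerevisiae encode serine-rich mannoproteins of the cell wall and their small relatives, which are best known from cells growing without oxygen. All genes in the count table whose standard name is PAU, DAN or TIR followed only by digits were taken, which gave 30 of 6692 genes: 24 PAU genes, DAN1 and DAN4, and TIR1, TIR2, TIR3 and TIR4. The rule uses gene names and no measured value, but the set was chosen with earlier results of these data known. Messenger RNA was sequenced from 16 libraries in 4 groups of 4, with replicates numbered 2 to 5. The groups were wild type cells (WT), cells whose histone H3 carries the H113N change, asparagine in place of a histidine (H113N), WT cells with YFH1 placed under the GAL1 promoter (WT YFH1 off), and H113N cells with the same promoter in front of YFH1 (H113N YFH1 off). YFH1 encodes yeast frataxin, a mitochondrial protein of iron-sulfur cluster assembly, and the GAL1 promoter is shut off in glucose. The question, from the series title, is what disrupting the copper reductase activity of histone H3 does to transcription when YFH1 is scarce.

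Per the labels' growth protocol, which is worded for YFH1-off cells but attached to every library, cells from glycerol plates or medium (YPG) entered synthetic complete medium at an OD600 of 1 and 30 °C, were diluted every 12 h for 36 h and grew 8 h more, 44 h in all. The shutoff and the strain that carries the GAL1 promoter always came together, so an effect of losing YFH1 and an effect of the strain background cannot be told apart. The labels do not say that replicates were separate cultures, so p-values measure only the spread between these samples. In RNA from whole cultures, fewer cells that express a gene and less RNA per cell cannot be told apart. Library totals ran from 6694390 to 10663540 counts. YFH1 itself averaged 63.4 ± 3.73 CPM (a count scaled to its library's size, mean ± SD, n = 4) in WT and 7.13 ± 1.28 in WT YFH1 off, and 52.3 ± 5.22 in H113N and 10.5 ± 1.70 in H113N YFH1 off. The shutoff lowered YFH1 by less in H113N: the log2 fold change was -3.14 ± 0.12 in WT and -2.32 ± 0.11 in H113N, with an interaction of 0.82 ± 0.17 (adjusted p = 0.0014, edgeR). The part of this residual YFH1 in the smaller responses of H113N cells described below was not tested.

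Dan and Tir proteins are mannoproteins that are attached to the wall through a glycolipid anchor and take the place of the mannoproteins Cwp1 and Cwp2 when oxygen runs out. Without oxygen, yeast cells make neither heme nor sterols: the heme-dependent repressor Rox1 and the repressor Mot3 then fall away, and the sterol-sensing activator Upc2 switches on DAN, TIR and sterol uptake genes. The PAU genes, named seripauperins because they lack the serine-rich stretch of their relatives, are the largest gene family of this yeast, lie mostly next to chromosome ends and are induced under the same conditions.

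The coding sequences show why the PAU genes were summed. Among 231 pairs of PAU genes with 300 or more aligned bases, identity ran from 84.3% to 100%, with a median of 87.9%, and 3 pairs were identical. Among the 15 pairs of DAN and TIR genes it ran from 58.4% to 76.4%, with a median of 69.2%. The stretch below covers coding bases 91 to 150 of PAU14 and the aligned 60 bases of 5 relatives, read from RefSeq R64, the assembly that sacCer3 holds, with each base that differs from PAU14 in capitals. It is shown because a short read from it cannot tell PAU14, PAU1 and PAU24 apart, while PAU5 carries 9 differences, PAU23 carries 8 and PAU17 carries 6.
PAU14: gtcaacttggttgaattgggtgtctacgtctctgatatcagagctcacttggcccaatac
PAU1: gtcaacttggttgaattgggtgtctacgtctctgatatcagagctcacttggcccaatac
PAU24: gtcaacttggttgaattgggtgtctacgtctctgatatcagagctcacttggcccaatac
PAU5: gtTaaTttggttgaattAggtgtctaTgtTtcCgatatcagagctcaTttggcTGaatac
PAU17: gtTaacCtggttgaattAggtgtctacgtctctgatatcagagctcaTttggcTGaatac
PAU23: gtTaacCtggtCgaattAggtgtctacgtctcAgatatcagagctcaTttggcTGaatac

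How far a count belongs to its own gene was measured as the share of its 50-base words that occur once in the genome. It was 100% for DAN1, TIR2 and TIR3, 87.0% for TIR1, 80.1% for DAN4 and 79.8% for TIR4. Of the 24 PAU genes, 7 had no such word (PAU1, PAU6, PAU9, PAU14, PAU18, PAU21 and PAU22), 11 had 13.7% to 48.1%, and 6 had 61.0% to 100% (PAU2, PAU3, PAU5, PAU7, PAU17 and PAU23). The 7 genes without a unique word held 32 counts in all 16 libraries together, and 6 of them, all but PAU9, held 0 or 1 count each. A count of 0 for these genes is therefore no measure of their transcription. All 24 PAU genes held 7080 counts together, against 54716 for the 6 DAN and TIR genes.

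**Figure D1:**
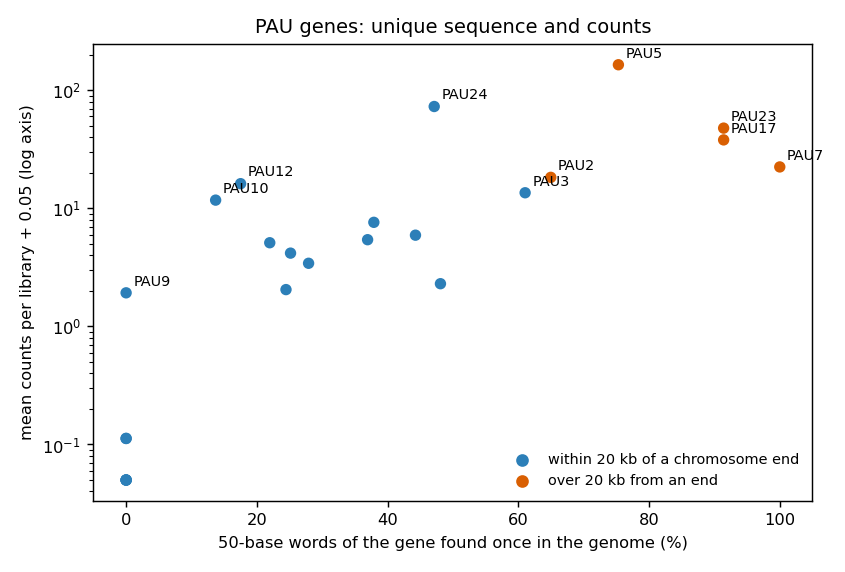
Each point is a PAU gene, with the share of its 50-base words found once in the genome on the x axis (%) and its mean counts per library plus 0.05 on a log y axis, coloured by distance to the chromosome end. The 7 genes at 0% lie at the bottom, with at most 1.88 counts a library, and PAU5 has the most counts, 164.4 a library.

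Upstream of the start codons, 3 short motifs tied to anaerobic genes were counted on both strands over 600 bases. AR1, known from DAN and TIR promoters, was searched as TCGTTNAG, with any base at N. The others were a core bound by Upc2 (TCGTATA) and a core bound by Rox1 (ATTGTT). AR1 was found before 3 of 6 DAN and TIR genes and 19 of 24 PAU genes, against 5.93% of 5983 upstream regions. The Upc2 core stood before 4 of 6 and 21 of 24, against 8.57%. The Rox1 core stood before 6 of 6 and 17 of 24, against 54.9%, so most regions of any kind hold it. At 4 places among these genes, sites of different motifs overlap. PAU upstream regions are close copies of each other, so their counts are not independent, and a match is a description and not a binding site.

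The sites below are printed 5′ to 3′ on the strand of the gene, with 10 bases on either side and the motif in capitals (a site on the opposite strand appears as its reverse complement, TATACGA for the Upc2 core). They are shown for the genes on which the results turn, and not every site of these genes is printed. DAN1 has AR1 412 and 180 bases before its start codon, an Upc2 core at 203 and Rox1 cores at 558 and 239. PAU5 has an Upc2 core at 252 and neither other motif, and TIR2 has a single Rox1 core at 102 and neither other motif. PAU24 has AR1 at 432 and Upc2 cores at 537 and 262.
DAN1 AR1, chrX:710102-710129, minus strand: attttatctgTCGTTTAGcacatatggc
DAN1 AR1, chrX:709870-709897, minus strand: taacaaaacaTCGTTCAGgaacagagaa
DAN1 Upc2 core, chrX:709894-709920, minus strand: tgccaagatcTATACGAggcctctaac
DAN4 AR1, chrX:715919-715946, minus strand: aagatctccaTCGTTCAGgaactgtaaa
TIR1 Upc2 core, chrV:174711-174737, plus strand: caattttctcTATACGAcggctataaa
TIR2 Rox1 core, chrXV:347037-347062, minus strand: acgaaattcgAACAATgagagctctc
TIR3 Upc2 core, chrIX:333296-333322, plus strand: acattggcctTATACGAggcgtacttc
TIR4 AR1, chrXV:344102-344129, plus strand: aacagggttcCTAAACGAtgcatttcta
PAU5 Upc2 core, chrVI:99835-99861, minus strand: gcgtgtttctTATACGAagtgcagcat
PAU24 AR1, chrII:808615-808642, plus strand: taggtggcctCTTAACGAgggttcaaag
PAU24 Upc2 core, chrII:808785-808811, plus strand: agcgtgcgccTCGTATAcgggacctat

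DAN1 (YJR150C, chrX:708811-709707, minus strand), a wall mannoprotein gene that is silent in air, showed the widest range. Its level was 0.348, 0.246, 0 and 0.112 CPM in WT replicates 2, 3, 4 and 5. In WT YFH1 off it was 302.4, 310.6, 344.9 and 253.5 CPM. In H113N it was 2.07, 2.48, 1.66 and 2.47 CPM, and in H113N YFH1 off it was 11.5, 8.56, 9.08 and 10.2 CPM. No group overlapped another: WT was lowest, H113N next, H113N YFH1 off above it and WT YFH1 off far above all. DAN1 had 6 counts over the 4 WT libraries and 9422 over the 4 WT YFH1 off libraries, a depth-adjusted ratio of 1705 with a 95% interval of 783 to 4647 that covers counting error only.

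DAN4 (YJR151C, chrX:712255-715740, minus strand), the neighbour of DAN1 and the gene of a large mannoprotein, was already transcribed in WT, at 20.8, 17.6, 21.0 and 21.8 CPM. It stood at 108.3, 92.2, 93.3 and 85.2 CPM in WT YFH1 off, at 24.1, 21.4, 25.0 and 19.9 CPM in H113N and at 30.5, 27.3, 29.6 and 32.2 CPM in H113N YFH1 off. WT and H113N overlapped, and the other groups lay above both.

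TIR1 (YER011W, chrV:175248-176012, plus strand) encodes a serine-rich mannoprotein that is also induced by cold. It measured 2.44, 1.72, 2.77 and 1.24 CPM in WT and 92.9, 112.9, 126.0 and 100.7 CPM in WT YFH1 off. In H113N it measured 6.68, 11.1, 11.4 and 8.46 CPM, and in H113N YFH1 off 19.9, 23.0, 20.7 and 15.8 CPM. The order of the 4 groups was that of DAN1, with no overlap.

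TIR2 (YOR010C, chrXV:346195-346950, minus strand), a cold-induced relative of TIR1, stood at 14.97, 20.1, 18.7 and 19.8 CPM in WT and at 313.4, 355.4, 345.1 and 245.7 CPM in WT YFH1 off. It stood at 41.8, 43.8, 42.9 and 46.9 CPM in H113N and at 99.1, 86.6, 91.5 and 79.7 CPM in H113N YFH1 off. These groups did not overlap either.

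TIR3 (YIL011W, chrIX:333727-334536, plus strand), a wall mannoprotein gene that anaerobic growth needs, averaged 12.4 ± 1.37 CPM in WT, 156.7 ± 21.0 in WT YFH1 off, 16.5 ± 2.74 in H113N and 30.8 ± 3.10 in H113N YFH1 off. TIR4 (YOR009W, chrXV:344335-345798, plus strand), which lies next to TIR2 and is likewise needed for anaerobic growth, averaged 34.6 ± 6.23, 222.6 ± 35.3, 44.3 ± 4.59 and 70.2 ± 2.90 CPM in the same order. For both genes the libraries of WT and H113N overlapped and the other groups did not.

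Per length, TIR2 was the highest of the 6 in every group, at 24.3 CPM per kilobase in WT, 416.5 in WT YFH1 off, 58.0 in H113N and 118.0 in H113N YFH1 off. In WT it did not differ from TIR4 (23.6) beyond the spread between libraries. DAN1 moved most in this order: it was lowest in WT (0.197) and in H113N (2.42) and stood directly after TIR2 in WT YFH1 off (337.6). WT YFH1 off replicate 5 was the lowest library of its group in 5 of the 6 genes, the exception being TIR1, where replicate 2 was lowest.

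The summed PAU genes measured 11.6, 10.2, 11.4 and 11.02 CPM in WT and 58.2, 55.2, 83.5 and 82.7 CPM in WT YFH1 off. They measured 48.6, 49.9, 51.4 and 51.5 CPM in H113N and 58.0, 70.6, 75.8 and 72.3 CPM in H113N YFH1 off. WT lay far below the other groups, H113N stood below both shutoff groups, and the H113N YFH1 off libraries lay within the range of WT YFH1 off.

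**Figure D2:**
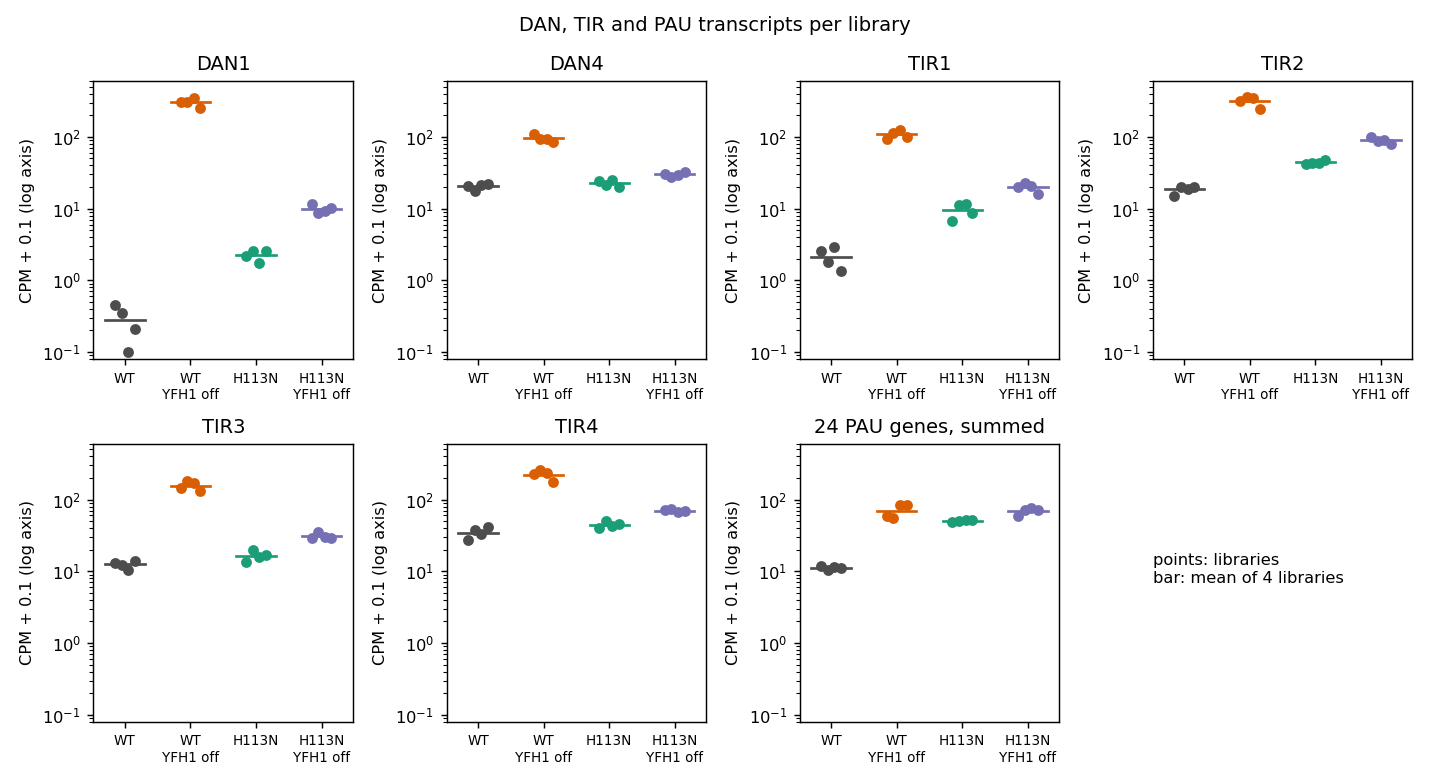
CPM plus 0.1 on a log axis for DAN1, DAN4, TIR1 to TIR4 and the sum of 24 PAU genes, with 1 point per library and a bar at the mean of the 4 libraries of each group. DAN and TIR genes peak in WT YFH1 off (302.9 CPM for DAN1), while the PAU sum is about as high in H113N YFH1 off (69.2 CPM) as in WT YFH1 off (69.9 CPM).

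Shutting off YFH1 under wild type histone H3 raised all 6 DAN and TIR genes and the PAU sum. The log2 fold change was 10.63 ± 0.21 (SE) for DAN1, 5.72 ± 0.20 for TIR1, 4.10 ± 0.12 for TIR2, 3.66 ± 0.12 for TIR3, 2.68 ± 0.13 for TIR4 and 2.22 ± 0.09 for DAN4, with adjusted p from 5.80e-16 for DAN1 to 2.27e-11 for TIR4 (edgeR quasi-likelihood test, Benjamini-Hochberg over all rows tested). For DAN1, with so few WT counts, this fitted value depends on a prior count, and the ratio given above is the measured one. The PAU sum rose by 2.67 ± 0.14 (adjusted p = 8.60e-11, edgeR). These 7 of 7 rises stand against 24.3% of 5866 rows called higher in the same comparison (25.3% lower, 49.7% in either direction), and the groups did not overlap for 7 of 7, against 20.7% of rows. The median over the 7 was 3.66, and over all genes 0.01.

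The same shutoff in H113N cells also raised all 7, by less. The log2 fold change was 2.17 ± 0.19 for DAN1, 1.08 ± 0.17 for TIR1, 1.03 ± 0.11 for TIR2, 0.91 ± 0.13 for TIR3, 0.67 ± 0.12 for TIR4 and 0.40 ± 0.09 for DAN4, with adjusted p between 1.09e-06 for DAN1 and 0.00577 for DAN4 (edgeR). The PAU sum rose by 0.46 ± 0.12 (adjusted p = 0.0105, edgeR). In this comparison 10.5% of rows were called higher (9.9% lower, 20.4% in either direction, or 1194 rows, a count that fell to 636 without replicate 4, 719 without replicate 3 and 764 without replicate 5), and the groups did not overlap in that direction for 7 of 7, against 14.4% of rows. The median over the 7 was 0.91. The rise of the PAU sum no longer passed without replicate 4 (0.44, adjusted p = 0.0636, edgeR) or without replicate 5 (adjusted p = 0.0619, edgeR). That of DAN4 no longer passed without replicate 5 (0.31, adjusted p = 0.0589, edgeR).

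The difference between these effects was tested as an interaction. The shutoff raised each of the 7 less in H113N than in WT: the interaction was -8.45 ± 0.43 for DAN1, -4.64 ± 0.29 for TIR1, -3.07 ± 0.16 for TIR2, -2.75 ± 0.18 for TIR3, -2.21 ± 0.18 for the PAU sum, -2.02 ± 0.18 for TIR4 and -1.82 ± 0.13 for DAN4 on the log2 scale. The largest adjusted p among them was 2.13e-07, for TIR4 (edgeR), and 14.6% of 5866 rows had a negative interaction that passed (16.1% a positive one, 30.7% either). The histones also differed with YFH1 on, in the strains without the GAL1 promoter: H113N against WT gave 3.50 ± 0.46 for DAN1, 2.20 ± 0.26 for TIR1, 1.25 ± 0.12 for TIR2, 0.40 ± 0.14 for TIR3, 0.35 ± 0.13 for TIR4 and 2.18 ± 0.14 for the PAU sum.

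Of these 7 values with YFH1 on, 6 passed as higher, against 24% of rows (21.4% lower, 45.3% in either direction), and DAN4 did not (0.16, 95% interval -0.05 to 0.36, adjusted p = 0.214, edgeR). DAN1, TIR1, TIR2 and the PAU sum had groups that did not overlap, 4 of 7 against 19.7% of rows. For DAN1 the ratio of depth-adjusted counts was 12.2, with a 95% counting interval of 5.34 to 34.3. The rises of TIR3 (adjusted p = 0.0275, edgeR) and TIR4 (0.0358) were small and unstable: with only the groups compared in the fit they missed the threshold (0.0516 and 0.0723), TIR3 also missed it without replicate 3, 4 or 5, and TIR4 without replicate 2, 3 or 4.

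With YFH1 off, the direction turned for the DAN and TIR genes. H113N against WT was -4.95 ± 0.12 for DAN1, -2.44 ± 0.14 for TIR1, -2.34 ± 0.11 for TIR3, -1.82 ± 0.11 for TIR2, -1.66 ± 0.12 for TIR4 and -1.66 ± 0.09 for DAN4, all passing, with the largest adjusted p 7.25e-09 for TIR4 (edgeR). In this comparison 25.1% of rows were called lower (27.3% higher, 52.4% in either direction), and the groups did not overlap in that direction for 6 of 7, against 26% of rows. The PAU sum did not pass (-0.02, 95% interval -0.27 to 0.22, adjusted p = 0.883, edgeR), and its sign turned with library size only (0.10, not called). Without PAU5 the sum was higher in H113N (0.81, called), and over the PAU genes with 50% or more unique words it was lower (-0.52, called). A two-sided exact permutation test of the PAU sum in CPM gave p = 0.971 for this pair and p = 0.0286, the smallest that 4 against 4 can give, for each of the other 3 pairs. All of these comparisons share groups of libraries with each other.

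**Figure D3:**
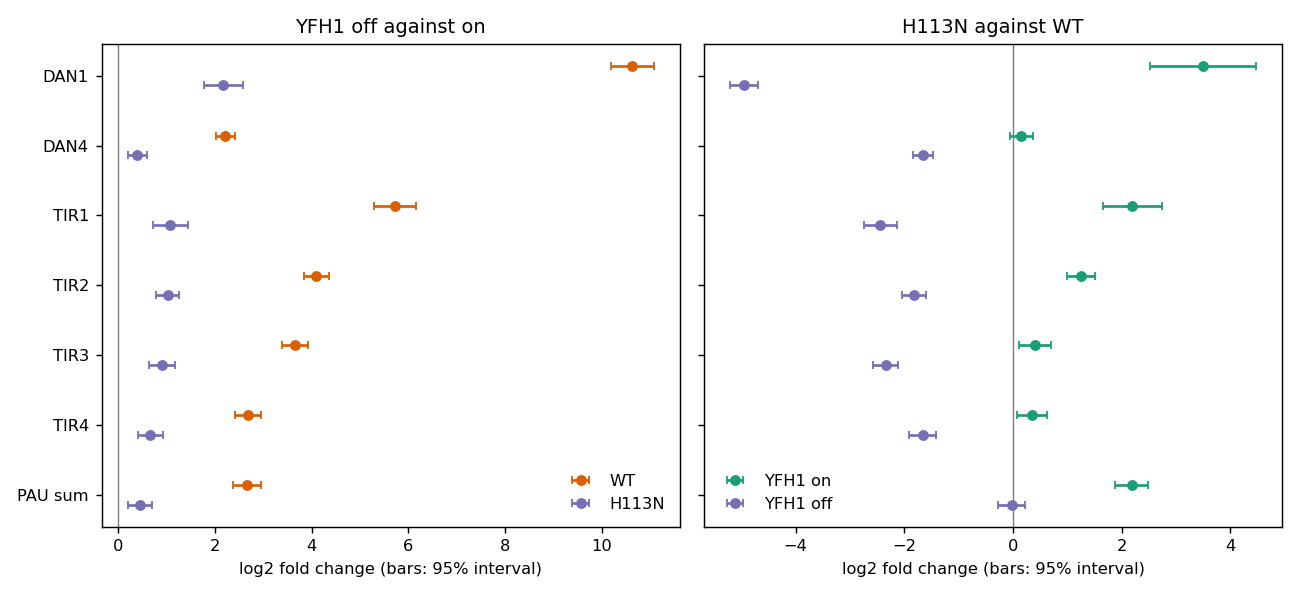
Log2 fold change with its 95% interval for DAN1, DAN4, TIR1 to TIR4 and the PAU sum, for YFH1 off against on in WT and H113N cells (left) and for H113N against WT with YFH1 on and off (right). On the left each gene lies further right in WT than in H113N, from 2.22 against 0.40 for DAN4 to 10.63 against 2.17 for DAN1, and on the right the 6 DAN and TIR genes are below 0 with YFH1 off while the PAU sum is at -0.02.

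Different PAU genes made up the PAU sum in the 4 groups. PAU5 (YFL020C, chrVI:99231-99599, minus strand) held 5.10% to 11.6% of PAU counts in WT, 53.8% to 64.1% in WT YFH1 off, 23.5% to 34.6% in H113N and 25.6% to 31.3% in H113N YFH1 off. PAU24 (YBR301W, chrII:809057-809419, plus strand), also known as DAN3, held 2.04% to 6.02%, 6.49% to 7.86%, 21.3% to 29.0% and 18.3% to 22.9% in the same order. PAU5 thus took the largest share where the DAN and TIR genes were highest, and PAU24 took its largest share in both H113N groups.

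PAU5 averaged 0.888 ± 0.327 CPM in WT, 41.6 ± 11.6 in WT YFH1 off, where its libraries stood at 31.3, 32.0, 53.6 and 49.5, 14.5 ± 2.20 in H113N and 19.2 ± 1.35 in H113N YFH1 off. Fitted as a row of its own, it rose by 5.55 ± 0.26 with the shutoff in WT (adjusted p = 2.14e-11, edgeR) and was lower in H113N than in WT with YFH1 off (-1.13 ± 0.16, adjusted p = 2.13e-05, edgeR). In H113N the shutoff gave 0.42 ± 0.18 (adjusted p = 0.103, edgeR). In that fit, with PAU genes in separate rows, 24.5% of 5876 rows were called higher with the shutoff in WT and 11.8% with the shutoff in H113N. Between the histones, 23% of rows were higher in H113N with YFH1 on, and 27.2% were higher and 25.2% lower with YFH1 off.

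PAU24 averaged 0.445 ± 0.185 CPM in WT, 4.87 ± 0.922 in WT YFH1 off, 12.2 ± 2.05 in H113N and 14.5 ± 2.55 in H113N YFH1 off. It was higher in H113N than in WT both with YFH1 on (4.73 ± 0.27, adjusted p = 1.76e-09, edgeR) and with YFH1 off (1.55 ± 0.17, adjusted p = 1.25e-06, edgeR), the opposite sign from PAU5 and from the DAN and TIR genes with YFH1 off. Its unique words made up 47.1% of the gene, so its counts may hold reads of other PAU genes. Of the 11 PAU genes tested singly, 6 were higher in H113N with YFH1 off, 1 (PAU5) was lower and 4 were not called. Among all rows of that fit, 27.2% were higher and 25.2% lower. Among the 6, PAU4, PAU10 and PAU20 passed the count filter only through H113N libraries. They held 17, 18 and 2 counts over the 4 WT YFH1 off libraries, so the filter partly fixed this tally.

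The other PAU genes with 10 or more counts a library and 50% or more unique words were PAU2, PAU3, PAU7, PAU17 and PAU23. PAU2 and PAU3 rose with the shutoff in WT by 3.63 ± 0.39 and 3.42 ± 0.41, from 0.232 and 0.240 CPM, and in H113N with YFH1 on they were higher than in WT by 2.95 ± 0.43 and 2.20 ± 0.49. Both held only 8 counts each over the 4 WT libraries. Between the histones with YFH1 off they gave 0.00 ± 0.23 and -0.31 ± 0.26, neither of which passed. PAU17 and PAU23, with 91.4% unique words each, rose with the shutoff in WT by 1.05 ± 0.15 and 0.86 ± 0.20. PAU23 was higher in H113N with YFH1 off too (0.87 ± 0.17, adjusted p = 0.000374, edgeR), and PAU7 passed in none of the 5 contrasts. Of the 11 PAU genes tested singly, 5 had a negative interaction that passed, 1 a positive one, and 5 did not pass. With the PAU genes summed, 14.6% of 5866 rows were negative and 16.1% positive. The positive one was PAU12 (1.68 ± 0.47, adjusted p = 0.0119, edgeR), named after its values were seen and with 17.5% unique words. PAU12 stood at 0.979 ± 0.219 CPM in WT YFH1 off and 2.91 ± 0.906 in H113N YFH1 off. PAU23 rose with the shutoff in H113N too (0.82), with an interaction of -0.04 (adjusted p = 0.924, edgeR).

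**Figure D4:**
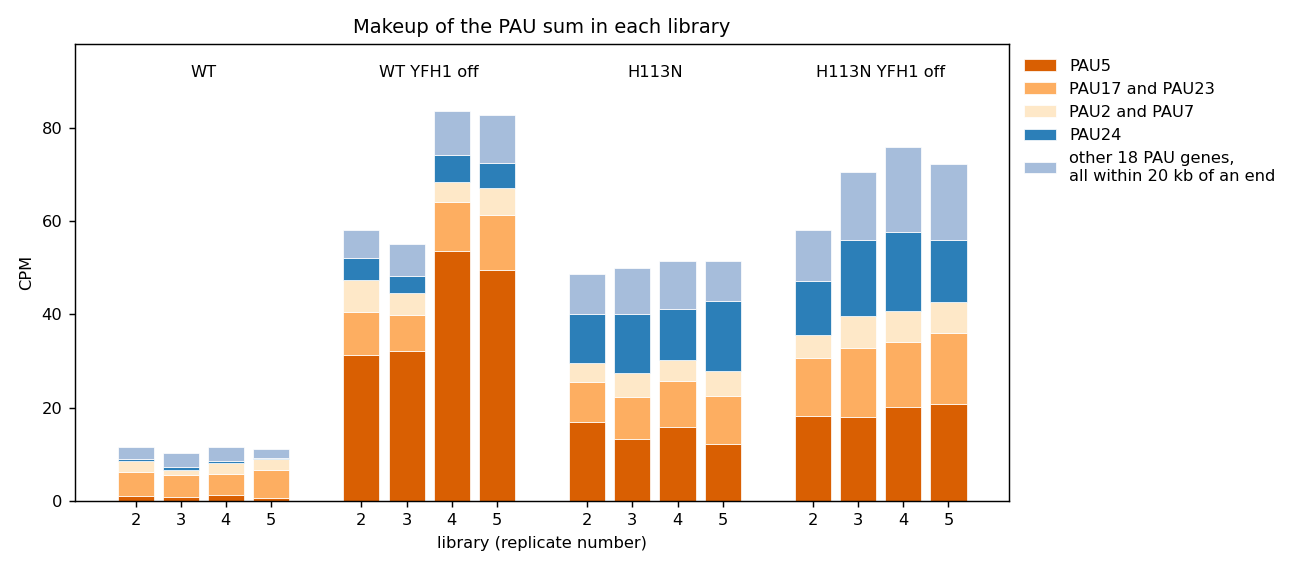
Stacked CPM of the PAU genes in each of the 16 libraries, grouped by condition, with bars split into PAU5, PAU17 and PAU23, PAU2 and PAU7, PAU24, and the 18 others, which all lie within 20 kb of a chromosome end. PAU5 fills 53.8% to 64.1% of the bar in WT YFH1 off and 25.6% to 31.3% in H113N YFH1 off, though the bars are of like height.

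By position, 19 PAU genes lay within 20 kb of a chromosome end and 5 (PAU2, PAU5, PAU7, PAU17 and PAU23) lay further in, a limit chosen after their values were seen. The 19 summed to 3.02 ± 0.691 CPM in WT, 13.0 ± 2.70 in WT YFH1 off, 21.6 ± 2.0 in H113N and 29.5 ± 5.28 in H113N YFH1 off. The 5 summed to 8.05 ± 1.00, 56.9 ± 12.6, 28.8 ± 1.41 and 39.7 ± 2.99 CPM. The end-near sum had its highest mean in H113N YFH1 off and the inner sum in WT YFH1 off. PAU5 alone set the latter: without it the other 4 inner genes summed to 15.3 ± 2.19 CPM in WT YFH1 off and 20.4 ± 2.07 in H113N YFH1 off. PAU24 weighed on the end-near sum. Without it the other 18 genes summed to 2.58 ± 0.559 CPM in WT and 8.16 ± 1.92 in WT YFH1 off. They summed to 9.36 ± 0.806 in H113N and 14.99 ± 3.09 in H113N YFH1 off. The libraries of WT YFH1 off and H113N then overlapped, and H113N YFH1 off kept the highest mean.

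Other genes near ends and on certain chromosomes moved as well. Of 149 genes within 20 kb of an end that are no PAU, DAN or TIR gene, 67 were higher and 19 lower in H113N with YFH1 on, with a median log2 fold change of 0.31, against a median of -0.01 in the 5462 genes further in, of which 21.7% were higher and 24.4% lower. On chromosome II, which carries PAU24 and PAU9, 190 of 393 genes were higher and 28 lower in H113N with YFH1 on, with a median of 0.21. These calls by position come from the fit with PAU genes in separate rows, where 23% of all rows were higher in this comparison. With the PAU genes summed, 21.4% of rows were lower. The median was 0.20 on chromosome I, with PAU7 and PAU8, and 0.10 on chromosome V, with TIR1 and PAU2. The shutoff in H113N gave a median of -0.17 on each of chromosomes I and II. There 34.6% and 36.1% of genes were lower and 2.5% and 3.1% higher. Their interaction medians were -0.22 and -0.16. Near ends, 40.3% of genes were higher and 20.1% lower in H113N with YFH1 off, against 26.3% and 26.1% further in. With the shutoff in WT, 35.6% of genes near ends were higher and 18.1% lower, against 24.5% and 26% further in. Without the chromosome II genes the PAU sum was still higher in H113N with YFH1 on, by 1.84. The part of chromosome position or copy number in the PAU result was not tested.

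Among the 11 regulators of anaerobic genes, 6 were higher and 2 lower with the shutoff in WT, against 24.3% and 25.3% of all rows, with a median of 0.21. UPC2, the sterol-sensing activator, rose from 59.6 ± 8.09 to 270.3 ± 11.3 CPM (2.18 ± 0.08), HAP1, a heme-responsive regulator, by 1.87 ± 0.06, and ROX1, the repressor, by 1.45 ± 0.08. ECM22, the relative of UPC2, rose by 0.88 ± 0.08, and MOT3, the other repressor, fell by 0.59 on the log2 scale. In H113N the shutoff called 3 higher and 1 lower, against 10.5% and 9.9%, with UPC2 at 0.19 ± 0.08 (adjusted p = 0.116, edgeR) and HAP1 at 0.23 ± 0.05. The interaction was negative and passed for 6 of the 11, against 14.6% of rows, UPC2 at -1.99 ± 0.11 and HAP1 at -1.64 ± 0.08 among them.

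The 4 genes of anaerobic sterol uptake and esterification gave 3 higher and 1 lower with the shutoff in WT (24.3% and 25.3% of all rows), with a median of 1.34. AUS1, a sterol importer that neighbours TIR2, rose from 72.1 ± 6.51 to 471.6 ± 50.1 CPM (2.71 ± 0.08), ARE1, which esterifies sterols, by 1.59 ± 0.09, and PDR11, the other importer, by 1.10 ± 0.09. ARE2, the sterol acyltransferase used mainly in air, fell by 0.96 on the log2 scale. In H113N the shutoff called 2 higher, against 10.5% of rows, with AUS1 at 0.11 ± 0.08 (adjusted p = 0.395, edgeR).

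Of 7 heme-repressed genes outside the wall, 2 were higher and 2 lower with the shutoff in WT, near the shares of all rows (24.3% and 25.3%), with a median of 0.08. ANB1, an anaerobic form of translation factor eIF5A, rose from 5.25 ± 1.40 to 69.1 ± 9.85 CPM (3.71 ± 0.16), and AAC3, the anaerobic ADP/ATP carrier, by 1.31 ± 0.11. HEM13, an enzyme of heme synthesis, fell by 1.02 and SUR2, a sphingolipid hydroxylase, by 0.78 on the log2 scale. In H113N ANB1 started from 18.2 ± 1.04 CPM and rose by 1.11 ± 0.14.

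Of the 20 other wall genes, 5 were higher, 11 lower and 4 not called with the shutoff in WT, with a median of -0.25. The share of all rows was 24.3% higher, which 5 of 20 is near, and 25.3% lower. CWP2, a major mannoprotein of aerobic walls, fell from 3269 ± 63.2 to 577.3 ± 72.5 CPM (-2.5 ± 0.08), YGP1, a secreted stress glycoprotein, fell by 1.19, SED1, a stress mannoprotein, by 0.99 and CWP1 by 0.73 on the log2 scale. In H113N the shutoff called 0 higher and 4 lower, against 10.5% and 9.9% of rows. CWP2 gave -0.56 ± 0.07 there. TIP1, a cold-induced relative of the TIR genes, rose with the shutoff in WT (0.52 ± 0.12) and fell in H113N (-1.05 ± 0.12), with an interaction of -1.57 ± 0.17. Between the histones with YFH1 off, 15 of the 20 were higher and 3 lower in H113N, against 27.3% and 25.1% of rows, with CWP2 at 1.84 ± 0.08. With YFH1 on, 14 were higher and 2 lower in H113N, against 24% and 21.4% of rows, with the flocculin gene FLO9 at 3.56 ± 0.26, PIR3 at 2.25 ± 0.20 and SPI1 at 1.60 ± 0.13.

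**Figure D5:**
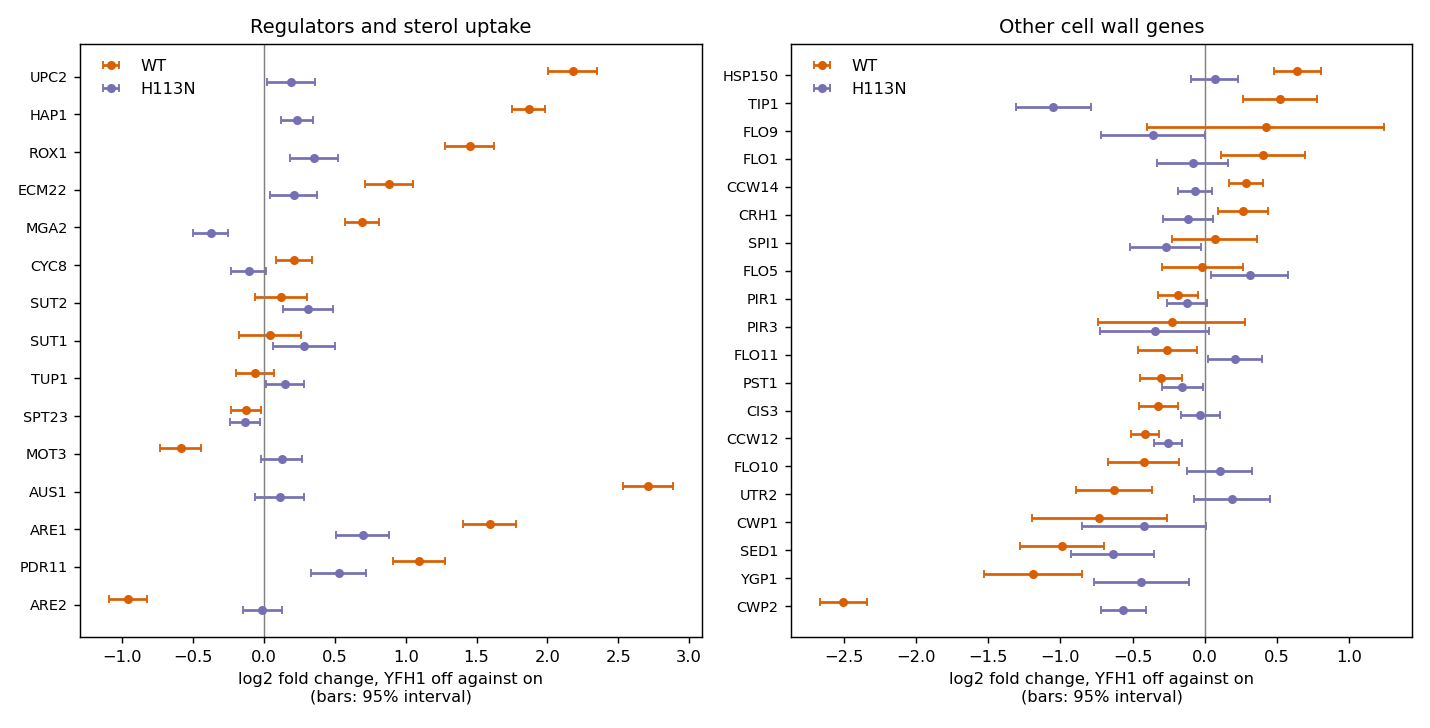
Log2 fold change for YFH1 off against on, with 95% intervals, in WT and H113N cells, for 11 regulators and 4 sterol genes (left) and 20 other cell wall genes (right). On the left UPC2 (2.18 against 0.19) and AUS1 (2.71 against 0.11) lie far apart between the histones, and on the right CWP2 lies at -2.5 against -0.56.

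Markers of mating type, the other cell type a culture could hold, moved with the groups too: of 10 listed, 1 was higher and 6 lower with the shutoff in WT (24.3% and 25.3% of all rows), and 10 were higher in H113N with YFH1 off (27.3% of all rows). The 6 a-cell genes summed to 1590 to 1906 CPM in WT, 334.3 to 492.5 in WT YFH1 off, 1780 to 2127 in H113N and 1283 to 1398 in H113N YFH1 off. The 4 alpha-cell genes summed to 43.1 to 46.4, 47.3 to 53.6, 108.1 to 116.7 and 100.9 to 113.1 CPM in the same order. BAR1, the a-cell protease, fell by 3.10 on the log2 scale with the shutoff in WT, and MF(ALPHA)1, an alpha-factor gene, was higher by 4.86 ± 0.20 in H113N with YFH1 on. None of the 10 was at 0 in every library of a group. The part of these cell types in the DAN, TIR and PAU results was not tested.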

How the data were processed

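Raw counts per gene were deposited by the authors, beside normalized counts (a signal scale) that equal the raw counts divided by 1 size factor per library, and tables of adjusted p-values, which were not printed. The submitters' processing notes name FastQC, cutadapt, HISAT2, featureCounts, DESeq2 and sacCer3 without roles or versions. Strand use, the handling of reads that match several places and the annotation are not given in the sources used here, and each could change PAU counts. Members and gene lists were chosen with earlier results of these data known.

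PAU genes were replaced by 1 row holding their sum. Counts were fitted in R 4.3.3 with edgeR 4.0.16 (limma 3.58.1): TMM scaling, filterByExpr by group, 1 mean per group over all 16 libraries, the quasi-likelihood test and Benjamini-Hochberg adjustment over 5866 rows, with calls at an adjusted p under 0.05. Contrasts numbered 5, the interaction included. A fit with PAU genes in separate rows had 5876 rows, and 11 of the 24 PAU genes passed its filter. CPM use TMM-scaled library sizes, and per-kilobase levels divide by coding length. The steps were tested on simulated data. DESeq2 1.42.0 and other settings were tried as alternatives. Count intervals cover counting error only.

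Identifiers were matched to RefSeq R64 (6005 of 6692, and 30 of 30 members), which gave coordinates and sequences. No member overlaps another annotated gene. All DAN and TIR genes and the PAU sum are named in every contrast. Of single PAU genes, the 3 with the highest CPM, PAU24, and those with 10 or more counts a library and 50% or more unique words are named. List genes named are among the 4 with the largest called change per contrast, besides UPC2, ROX1, HAP1, MOT3, CWP1 and CWP2.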

Additional observations from a re-analysis of the deposited data

Results flagged for a closer look

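The shutoff effect differed between the histones, by the interaction term, for 13 values. These were all 7 of the main fit and, of 11 PAU genes fitted singly, 5 negative and 1 positive. The other 5 single PAU genes did not pass. In the main fit 30.7% of 5866 rows passed, 14.6% as negative and 16.1% as positive. For DAN1 it was -8.45, for TIR1 -4.64, for TIR2 -3.07, for TIR3 -2.75, for TIR4 -2.02, for DAN4 -1.82 and for the PAU sum -2.21 on the log2 scale. Of PAU genes fitted singly, PAU5 gave -5.13, PAU24 gave -3.17, PAU2 gave -2.95, PAU3 gave -2.51 and PAU17 gave -0.79, while PAU12 went the other way at 1.68. PAU17 in WT YFH1 off had a library set apart from the other 3 of its group, at 4.21 CPM (26 counts) against 5.37 to 5.58 CPM. Its gap over range was 0.846, as the other 3 lay close together. Chance marks about 1 in 20 groups this way, and 56 were checked.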

How the results depend on the processing

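The PAU sum between the histones with YFH1 off depended most on the processing. It was -0.02 and not called. It was 0.10 with library size only and between -0.13 and 0.046 with 1 replicate left out (0.025 without replicate 4 and 0.046 without replicate 5), none called. It turned to 0.81 without PAU5 and, in an alternative chosen after seeing the data, to 1.16 over the genes within 20 kb of an end. It passed as lower over the genes with 50% or more unique words (-0.52) and, chosen after seeing the data, over those beyond 20 kb (-0.53). The makeup of the sum, given in the report, differs by construction between these settings. Without PAU5 the sum still rose with the shutoff in WT (1.48), with an interaction of -1.0. Leaving out 1 replicate moved the sum's rise in H113N between 0.44 and 0.54, the count of genes called for the shutoff in H113N (1194) between 636 and 1302, and that for the interaction (1801) between 1170 and 2068. The cause was not tested. Same-numbered libraries correlated weakly in their deviations: over the 6 pairs of groups the mean correlation ran from -0.09 (WT and WT YFH1 off) to 0.17 (both shutoff groups), and no pair of groups had all 4 above 0.1, so the numbers were not taken as pairs. A fit with the replicate block gave the PAU sum 2.65, 0.45, 2.19, -0.01 and -2.20 in the 5 contrasts and changed no call among the DAN and TIR genes and the PAU sum. Library size only moved the median of all genes by -0.11 for the shutoff in WT and by 0.13 between the histones with YFH1 off. Of 546 recomputed values, 524 kept their direction and call or stayed within 1.5 times for a count, 5 changed sign, 11 lost and 2 gained a call, and 4 counts moved further. Depth limits DAN1, PAU2, PAU3 and PAU24 in WT (6, 8, 8 and 15 counts) and the PAU genes without unique words.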

Other observations

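Genes beside the DAN1 and DAN4 pair rose with the shutoff in WT: BAT2, a branched-chain aminotransferase gene, by 2.22 ± 0.10, YJR149W by 1.07 ± 0.10 and DAL5, an allantoate permease gene, by 0.55 on the log2 scale. In H113N the shutoff gave 1.07, 0.62 and 0.34 for these 3. Among all rows, 24.3% were called higher with the shutoff in WT and 10.5% in H113N. The neighbours YJR151W-A, YOR008C-A and YOR011W-A had too few counts to be tested. Beside TIR4 and TIR2, AUS1 rose in WT as reported, while SLG1, a wall stress sensor gene on the other side, gave 0.07 in WT and 0.06 in H113N, neither of which passed.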
